A study of Mus musculus with 11 samples.

Results

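Knockdown of Mettl3 was compared with a scramble control in alphaTC1-6 cells (written aTC1-6 in the labels), a mouse line of immortalised, glucagon-producing alpha cells of the pancreas. The comparison rests on 7 of the 11 libraries of the series, chosen by their labels: 3 libraries of cells given the scramble control (scramble replicates 1 to 3) and 4 of cells in which METTL3 was knocked down (Mettl3 KD replicates 1 to 4). The other 4 libraries are from METTL14 knockdown cells (Mettl14 KD) and enter the estimate of spread and a direct contrast of the knockdowns. Cells of every group received their reagent by reverse transfection, grew in the normal medium of the line and were harvested after 72 h; the sources used here do not name the kind of knockdown reagent, and none of the 11 samples is labelled as untransfected. RNA was taken up in Trizol, purified on columns and made into stranded mRNA libraries. All cells are of a single line, and the labels do not say whether replicates were separate cultures, so each p-value reflects only how far these samples spread, a spread that may be technical. In bulk RNA, a change in the share of cells in a given state and a change in RNA per cell cannot be told apart.

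METTL3 is the enzyme, and METTL14 its structural partner, of the complex that places N6-methyladenosine (m6A) on mRNA in the nucleus. Readers of the mark are known to influence splicing, export, translation and decay of the marked RNAs, and marked sites tend to lie in long internal exons and near stop codons. In islets the complex is best known from beta cells, and m6A itself was not measured in these libraries.

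Mettl3 stood at 14.01, 14.7 and 16.02 CPM (counts per 1000000 counts of the library, scaled between libraries by the TMM method) in the scramble libraries and at 5.06, 5.01, 5.98 and 5.30 CPM in the Mettl3 KD libraries. This is 35.8% of the scramble mean, with a log2 fold change of -1.48 ± 0.083 (± standard error, here and below; edgeR quasi-likelihood test, adjusted p = 6.86e-11), and the groups did not overlap. A gene is called higher or lower below when its Benjamini-Hochberg adjusted p in that test, over all 14133 genes tested, is under 0.05. Mettl14, encoding the partner subunit, was called higher, with a log2 fold change of 0.22 ± 0.055. The libraries held between 19576632 and 22406527 counts. Scramble replicate 2 stood apart: the summed level of 9 lung and airway markers, in CPM of the library total without TMM scaling, was 125 in it and 2.63 to 5.27 in the other 6 libraries, that of 4 blood cell markers 20.6 against 0.982 to 2.14, and that of 8 immune, endothelial and fibroblast markers 33.8 against 1.75 to 5.22. The counts of each gene list are therefore given again without that library. Gcg, the glucagon gene, marked the line as alpha cells, at a mean of 33703 ± 4302 CPM (SD, n = 3) in scramble and 32823 ± 772 CPM (SD, n = 4) in Mettl3 KD. It was not called with all libraries (adjusted p = 0.708) and was called lower without scramble replicate 2, where it fell by 0.14 on the log2 scale (adjusted p = 5.58e-05). Of 7 beta cell markers, Ins1 and Pdx1 had no count in these 7 libraries and Ins2 had at most 1 per library. Nkx6-1, a beta cell transcription factor, stood at 48.97 to 73.5 CPM without TMM scaling, and Iapp at 0.583 to 1.12 CPM, Mafa at 0.357 to 0.715 CPM and Slc2a2 at 0.0893 to 0.179 CPM on the same scale.

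The response was broad and shallow. Of 14133 genes tested, 2184 were called higher in Mettl3 KD (15.5%) and 2236 lower (15.8%), together 31.3%. Without scramble replicate 2, 2188 genes were called higher (15.3%) and 2155 lower (15.1%) of 14316 tested, and 3654 of the 4420 calls were kept with the same sign. Large changes were mostly decreases: 48 genes were called higher and 372 lower by at least 1.5-fold, and 10 and 106 by at least 2-fold. The median log2 fold change of all genes was -0.0039, and the libraries of the 2 groups did not overlap in 35.5% of genes tested. These shares are the background against which the gene lists below are read. They are taken over all genes tested and are not matched to a list for level, transcript length or GC. Among coding genes, 26.2% of the most abundant were called higher, and 25.1% of the most GC-rich lower. The lists collect genes of known pathways and were not tested as sets; their counts and medians are a description.

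**Figure D1:**
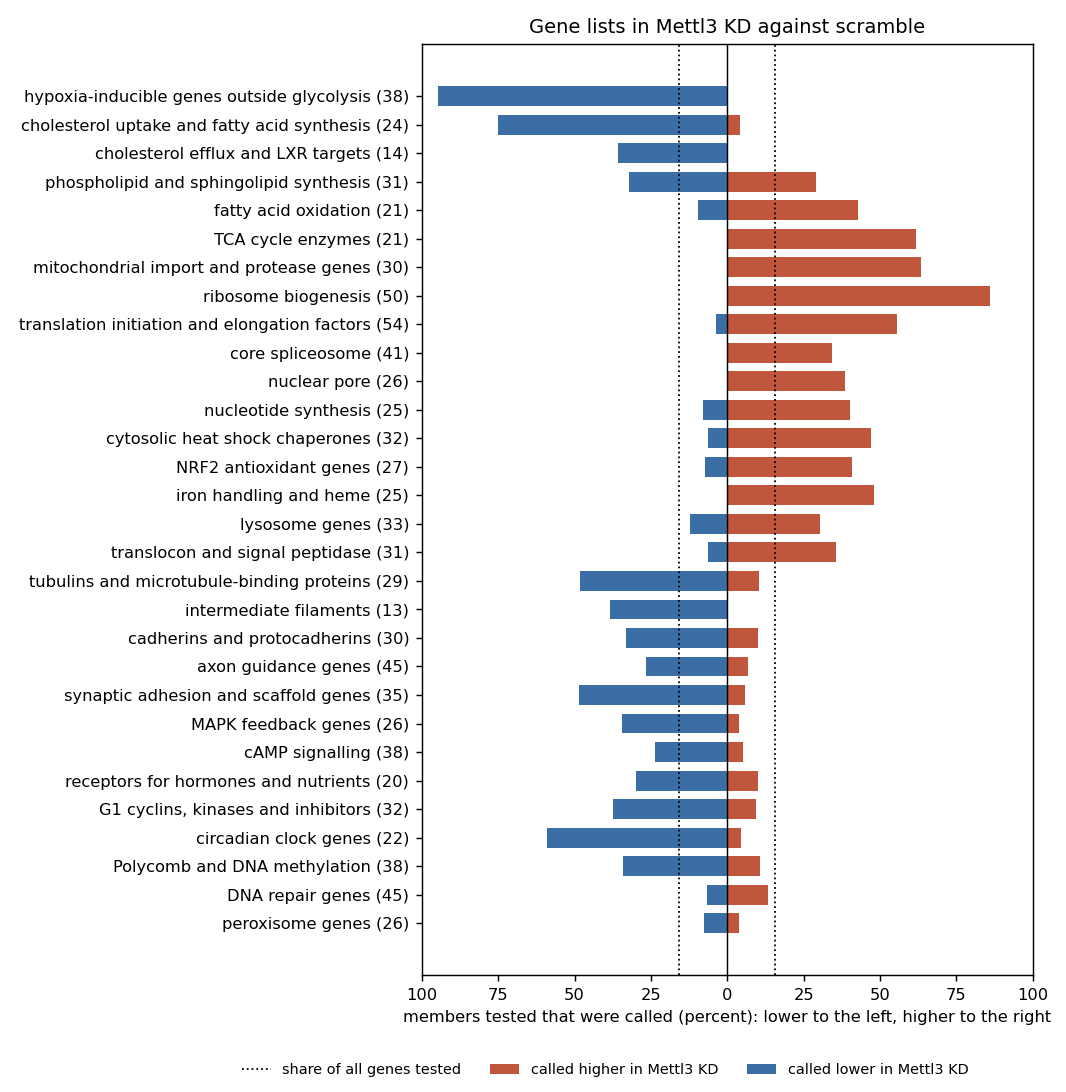
Bars show, for 30 gene lists, the percent of members tested that were called lower (left) or higher (right) in Mettl3 KD than in scramble by edgeR, with the number of members tested in brackets, and the dotted lines mark the shares of all genes tested. Hypoxia-inducible and lipid supply genes extend far to the left, and ribosome biogenesis, translation, mitochondrial import and TCA cycle genes to the right.

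Genes that are known to be induced by low oxygen fell as a group in Mettl3 KD. Of 38 such genes tested, not counting the enzymes of glycolysis, 36 were called lower and none higher, with a median log2 fold change of -0.64. Without scramble replicate 2 the counts were again 36 and 0, with a median of -0.69. The list does hold genes of glucose uptake and of the control of glycolysis, such as Slc2a1, Pfkfb3 and Pdk1. The labels name no change in oxygen between the groups. Hypoxia-inducible factors are transcription factors whose alpha subunits are hydroxylated by oxygen-dependent enzymes and then degraded; at low oxygen they accumulate and bind a short core sequence, ACGTG, in the promoters and enhancers of their targets.

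The ACGTG core, read on both strands (so also as CACGT), was present in the promoter window (250 bases before to 50 after the start, RefSeq, GRCm38.p6) of 18 of the 31 hypoxia list genes that had a window in the table, or 58.1%. It was present in 25.8% of 10233 windows of genes tested and in 19.6% of all 27025 windows of this length. By call, it was in 25.6% of 1677 windows of genes called lower, 28.1% of 1761 called higher and 25.3% of 6795 not called. At 1.5-fold or more, it was in 29.4% of 252 windows of genes called lower, which include list members, and 22.2% of 27 called higher. The list was made of genes known to respond to low oxygen, so its share does not bear on the knockdown. The core also sits inside the E-box CACGTG, so the counts of the 2 motifs overlap. The windows of the 4 list genes with the smallest adjusted p among those that hold the core are shown because these genes fell together. Each is written on the strand of its gene, with the core, or its reverse complement CACGT, in capitals; a match is a description of the letters and not a bound site.
P4ha1 (chr10:59323046-59323345, plus strand): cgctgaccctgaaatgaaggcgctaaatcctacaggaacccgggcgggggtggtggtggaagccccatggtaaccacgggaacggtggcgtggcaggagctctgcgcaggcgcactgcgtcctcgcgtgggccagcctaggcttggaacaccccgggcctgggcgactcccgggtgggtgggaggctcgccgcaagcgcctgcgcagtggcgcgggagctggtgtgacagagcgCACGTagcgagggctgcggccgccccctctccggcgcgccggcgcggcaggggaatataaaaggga
Fam162a (chr16:36071512-36071811, minus strand): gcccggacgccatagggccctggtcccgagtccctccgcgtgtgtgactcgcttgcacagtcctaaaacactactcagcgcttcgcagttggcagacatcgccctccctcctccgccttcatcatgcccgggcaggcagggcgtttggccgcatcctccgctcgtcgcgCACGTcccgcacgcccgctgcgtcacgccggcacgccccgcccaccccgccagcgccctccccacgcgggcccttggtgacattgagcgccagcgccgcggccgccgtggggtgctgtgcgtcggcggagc
Selenbp1 (chr3:94932833-94933132, plus strand): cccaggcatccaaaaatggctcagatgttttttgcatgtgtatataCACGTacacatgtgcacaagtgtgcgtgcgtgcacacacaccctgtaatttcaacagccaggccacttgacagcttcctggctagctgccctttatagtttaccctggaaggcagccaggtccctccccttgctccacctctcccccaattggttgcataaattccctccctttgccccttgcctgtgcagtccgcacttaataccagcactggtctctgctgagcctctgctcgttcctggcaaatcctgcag
Egln1 (chr8:124949205-124949504, minus strand): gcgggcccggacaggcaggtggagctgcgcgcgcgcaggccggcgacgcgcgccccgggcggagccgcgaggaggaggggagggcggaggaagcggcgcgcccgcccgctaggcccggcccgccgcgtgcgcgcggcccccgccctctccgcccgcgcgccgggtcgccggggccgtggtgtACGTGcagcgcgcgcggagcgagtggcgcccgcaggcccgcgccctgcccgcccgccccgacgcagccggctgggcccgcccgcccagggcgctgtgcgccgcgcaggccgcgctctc
The core begins at position -16 from the annotated start in P4ha1, -81 in Fam162a, -204 in Selenbp1 and -68 in Egln1.

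P4ha1 encodes a subunit of collagen prolyl 4-hydroxylase. It stood at 128, 129 and 133 CPM in scramble and 76.8, 74.4, 75.2 and 74.3 CPM in Mettl3 KD, a log2 fold change of -0.79 ± 0.055 (adjusted p = 4.5e-08). Fam162a, which encodes a mitochondrial protein, stood at 84.9, 84.1 and 84.7 CPM in scramble and 51.8, 45.6, 51.7 and 47.6 CPM in Mettl3 KD, a log2 fold change of -0.78 ± 0.058 (adjusted p = 5.47e-08). In both genes every Mettl3 KD library lay well under every scramble library. Selenbp1, a selenium-binding methanethiol oxidase, fell from 10.5, 12.6 and 11.98 CPM to 5.24, 3.89, 4.64 and 4.59 CPM (log2 fold change -1.34 ± 0.12, adjusted p = 8.08e-08). Egln1 encodes the prolyl hydroxylase that marks hypoxia-inducible factors for degradation, and is itself a target of these factors. It fell from 213, 231 and 214 CPM to 135, 120.4, 126 and 129 CPM (log2 fold change -0.78 ± 0.056, adjusted p = 1.9e-07). Its relative Egln3 stood at a mean of 3.36 ± 0.561 CPM (SD, n = 3) in scramble and 1.44 ± 0.202 CPM (SD, n = 4) in Mettl3 KD, and was also called lower (adjusted p = 3.1e-05). Neither gene overlapped between the groups.

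The genes of the factor's alpha subunits were not called by edgeR with all libraries. Hif1a stood at 145, 163 and 134 CPM in scramble and 141, 149.8, 146 and 144 CPM in Mettl3 KD, with overlapping groups and a log2 fold change of -0.021 ± 0.049 (adjusted p = 0.782; 0.22 without scramble replicate 2). Epas1, encoding the HIF-2 alpha subunit, stood at 11.5, 17.6 and 10.8 CPM in scramble and 16.97, 17.8, 17.99 and 15.7 CPM in Mettl3 KD. Its adjusted p was 0.0606 with all libraries. Without scramble replicate 2, the only scramble library at the knockdown level, it was called higher with a log2 fold change of 0.62 (adjusted p = 8.46e-08). With all libraries it was also called higher by DESeq2 (adjusted p = 0.0139), by limma-voom with quality weights (1.00e-05), by edgeR with no filter on low counts (0.000101) and by edgeR with the replicate block (0.0288). Epas1 is a known endothelial gene, and endothelial and lung markers were high in that library; their part in this value was not tested. Hif1a and Epas1 were chosen for naming after their values were seen.

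The secreted, metabolic and mitochondrial genes described next fell; all but Slc16a3 are members of the list. Vegfa, the vascular growth factor, stood at 259, 240.1 and 247 CPM in scramble and 152, 150.4, 157 and 157 CPM in Mettl3 KD (log2 fold change -0.69 ± 0.032, adjusted p = 4.43e-12). The glucose transporter gene Slc2a1 stood at 254, 246 and 249.7 CPM against 143, 126, 136 and 133 CPM (adjusted p = 3.72e-06), or 53.9% of the scramble mean. For both genes the highest knockdown library lay under the lowest scramble library. Pdk1, the kinase that restrains pyruvate dehydrogenase, fell from 119.8, 114 and 123 CPM to 62.1, 51.2, 58.6 and 56.3 CPM (log2 fold change -1.06 ± 0.078). The mitophagy receptor genes Bnip3 and Bnip3l fell to 45.01% and 66.7% of their scramble means, with adjusted p = 9.98e-05 and 3.96e-09. Within the knockdown group Bnip3 ranged from its lowest value in replicate 2 to its highest in replicate 1, at 193, 151, 169 and 167 CPM in replicates 1 to 4, against 372, 387 and 374 CPM in scramble. Pfkfb3, which makes an activator of glycolysis, and Slc16a3, a lactate exporter, fell to 44.5% and 39.2% of scramble. In both, Mettl3 KD replicate 2 was the lowest library, at 22.6 and 39.3 CPM.

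Regulators of chromatin and transcription in the list moved the same way. Bhlhe40, a transcriptional repressor shared with the clock, stood at 275, 273 and 286 CPM in scramble and 174, 162, 167 and 165 CPM in Mettl3 KD (log2 fold change -0.74 ± 0.039, adjusted p = 2.71e-11). Mxi1, a repressor that competes with Myc for its partner Max, fell by 0.71 on the log2 scale, and Kdm3a, a histone H3 lysine demethylase that needs oxygen, by 0.59. Ndrg1, a widely used hypoxia marker, stood at 109, 101 and 111 CPM in scramble and 51.7, 45.1, 49.7 and 50.8 CPM in Mettl3 KD, with adjusted p = 6.86e-11. The hormone precursor gene Adm fell the most in the list, by 1.80, and Ankrd37 and Hilpda fell by 1.08 and 0.76. The 2 members not called were Pfkfb4 (log2 fold change -0.34, adjusted p = 0.0586) and Upk1a (0.21, adjusted p = 0.58). List medians relative to the scramble mean were -0.60, -0.70, -0.62 and -0.61 in the 4 knockdown libraries and between -0.026 and 0.021 in the 3 scramble libraries, scramble replicate 2 included.

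**Figure D2:**
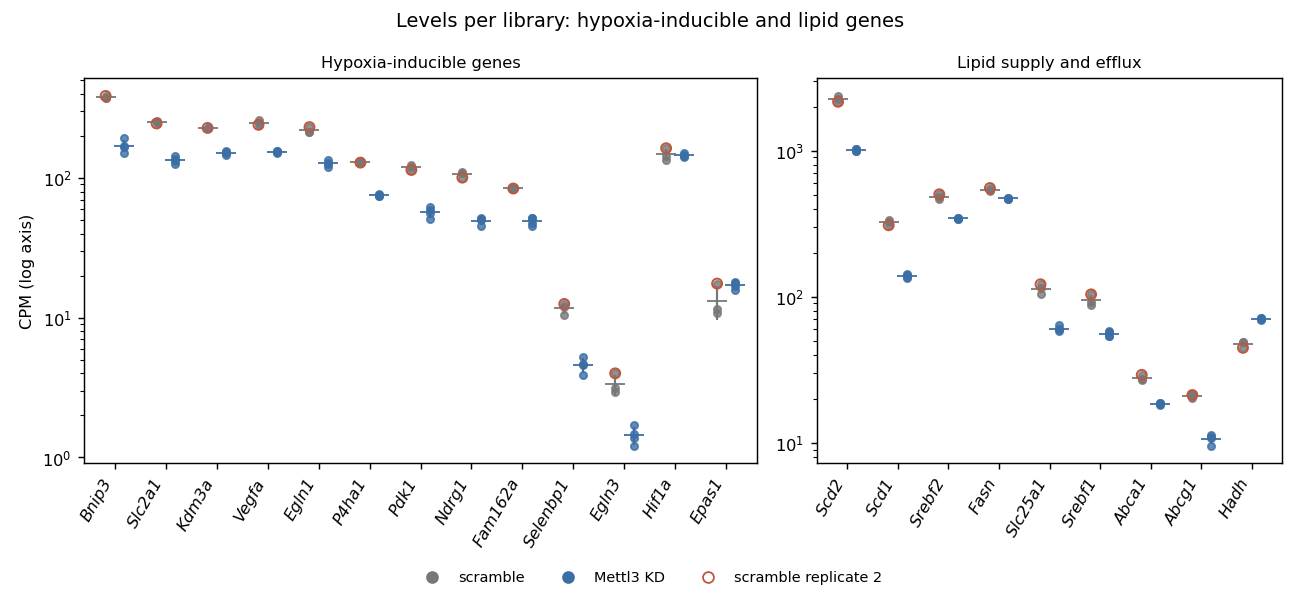
Points are single libraries (3 scramble, 4 Mettl3 KD) in CPM on a log axis, horizontal marks are group means and vertical lines are 1 SD; open circles mark scramble replicate 2. All genes except Hif1a, Epas1 and Hadh stood lower in every Mettl3 KD library than in every scramble library.

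Beyond the sterol pathway, genes for taking up cholesterol and making and desaturating fatty acids fell in most cases. Of 24 tested, 18 were called lower and 1 higher, with a median log2 fold change of -0.38; without scramble replicate 2, 19 were lower and 1 higher. Most members of this list are known targets of the SREBP transcription factors, which are released from the endoplasmic reticulum when sterols are low. The stearoyl-CoA desaturase gene Scd2 stood at 2372, 2162 and 2259 CPM in scramble and 989.5, 993, 1032 and 1026 CPM in Mettl3 KD (log2 fold change -1.17 ± 0.036, adjusted p = 3.04e-15). Its paralog Scd1 stood at 334, 309 and 326 CPM and 143, 134, 141 and 136 CPM (log2 fold change -1.22 ± 0.036, adjusted p = 2.04e-15). Knockdown levels were 44.6% of scramble for Scd2 and 42.9% for Scd1, and neither gene overlapped between the groups. Fasn, the fatty acid synthase, went from 536, 555 and 528 CPM to 473, 469, 471 and 475 CPM, a log2 fold change of -0.19 ± 0.030 (adjusted p = 5.36e-05). The groups did not overlap for Fasn.

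Regulators and suppliers of lipid synthesis followed. Both SREBP genes were lower, Srebf1 by 0.75 and Srebf2 by 0.49 on the log2 scale. Slc25a1, the mitochondrial citrate exporter that feeds cytosolic acetyl-CoA, fell by 0.91, and Acly, which cleaves that citrate, fell by 0.31. Insig1, a retention protein for the SREBP escort, fell by 0.40. The 1 member called higher was Scap (log2 fold change 0.16, adjusted p = 0.0031), the escort itself.

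Cholesterol export genes gave fewer calls. Of 14 genes of efflux and LXR control, 5 were called lower and none higher (4 and 0 without scramble replicate 2). The transporter gene Abcg1 stood at 21.5, 21.2 and 20.3 CPM in scramble and 10.7, 9.52, 11.3 and 10.9 CPM in Mettl3 KD (log2 fold change -0.98 ± 0.063, adjusted p = 4.61e-10), and Abca1 fell by 0.59 on the log2 scale. Phospholipid and sphingolipid genes split, with 9 higher and 10 lower of 31 (8 and 9 without scramble replicate 2). The phosphatidate phosphatase gene Lpin1 fell by 0.76 (adjusted p = 4.6e-11). Fatty acid oxidation genes leaned the other way, with 9 higher and 2 lower of 21 (8 and 2). Hadh, a mitochondrial dehydrogenase of that pathway, stood at 49.4, 44.7 and 48.8 CPM in scramble and 68.99, 70.6, 71.5 and 71.3 CPM in Mettl3 KD (log2 fold change 0.57 ± 0.049, adjusted p = 3.18e-08), with no overlap.

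Genes for building ribosomes rose together and by small steps. Of 50 ribosome biogenesis genes tested, 43 were called higher and none lower, with a median log2 fold change of 0.23. Without scramble replicate 2, the counts were 42 and 1, and the median 0.20. These genes transcribe ribosomal RNA, cut and modify it and assemble it with proteins in the nucleolus. Scramble replicate 2 had the lowest list median of the 3 scramble libraries, -0.070 relative to their mean, against 0.030 and 0.039 in the others and 0.21 to 0.24 in the knockdown libraries.

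Polr1a, the largest subunit of RNA polymerase I, stood at 177, 165 and 174 CPM in scramble and 199.9, 208, 206 and 205 CPM in Mettl3 KD (log2 fold change 0.25 ± 0.032, adjusted p = 5.01e-06). Nop2, a ribosomal RNA methyltransferase, stood at 169, 179 and 173 CPM and 209, 206, 205 and 213 CPM (log2 fold change 0.26 ± 0.031, adjusted p = 2.44e-06). Rrp12, which helps export ribosomal subunits, rose by 0.32 and Ddx21, a nucleolar helicase, by 0.26 on the log2 scale. For each of these genes the lowest knockdown library lay above the highest scramble library. Ncl, encoding nucleolin, stood at 1009.8, 754 and 991 CPM in scramble and 1154, 1274, 1149 and 1213 CPM in Mettl3 KD. Its change of 0.38 ± 0.099 (adjusted p = 0.018) came down to 0.26 without scramble replicate 2, its lowest library, and was still called (adjusted p = 0.00563). Not every nucleolar factor rose: Ubtf, an activator of polymerase I, stood at 212, 194 and 220.3 CPM and 200.2, 196, 200.2 and 201 CPM (adjusted p = 0.182), with overlapping groups, and was called lower without scramble replicate 2 (log2 fold change -0.12, adjusted p = 0.00268). Ubtf was called lower without scramble replicate 2, by 0.12 (adjusted p = 0.00268).

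The rise extended to other parts of gene expression machinery. Translation initiation and elongation factors were called higher in 30 and lower in 2 of 54 (34 and 1 without scramble replicate 2). Eif2b1, a subunit of the exchange factor that recharges eIF2, stood at 53.98, 56.3 and 52.6 CPM in scramble and 68.7, 73.7, 70.9 and 71.3 CPM in Mettl3 KD (log2 fold change 0.39 ± 0.038, adjusted p = 1.79e-07). The scaffold gene Eif4g1 rose by 0.23, while Eif4ebp1, which restrains cap-dependent initiation, fell by 0.29. Core spliceosome genes were higher in 14 and lower in 0 of 41 (13 and 0), nuclear pore genes in 10 and 0 of 26 (9 and 2), and nucleotide synthesis genes in 10 and 2 of 25 (9 and 2). Cytosolic aminoacyl-tRNA synthetases were higher in 7 and lower in 0 of 20, and this lean was weaker without scramble replicate 2, at 6 and 3.

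Mitochondrial supply genes leaned higher. Import and protease genes were called higher in 19 and lower in 0 of 30, with a median log2 fold change of 0.15 (20 and 1 without scramble replicate 2). Timm17a, a core channel subunit of the inner membrane translocase, stood at 189, 164 and 186 CPM in scramble and 249, 245, 239 and 245 CPM in Mettl3 KD (log2 fold change 0.44 ± 0.043, adjusted p = 2.02e-07). TCA cycle enzymes were higher in 13 and lower in 0 of 21, both with and without scramble replicate 2. Ogdh, a subunit of the oxoglutarate dehydrogenase complex, stood at 365, 366 and 359 CPM and 428, 427, 415 and 416 CPM (log2 fold change 0.21 ± 0.030, adjusted p = 1.6e-05). Neither Timm17a nor Ogdh overlapped between the groups.

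Protein folding, redox and iron genes leaned the same way with clear exceptions. Cytosolic chaperones were called higher in 15 and lower in 2 of 32 (14 and 3 without scramble replicate 2). The chaperonin subunit gene Cct3 rose by 0.29 and Hsph1, a nucleotide exchange factor for HSP70, by 0.31, but the co-chaperone gene Dnajb1 stood at 84.5, 82.7 and 81.1 CPM in scramble and 57.2, 51.1, 54.1 and 54.5 CPM in Mettl3 KD (log2 fold change -0.61 ± 0.039, adjusted p = 4.57e-10). Antioxidant genes linked to NRF2 were higher in 11 and lower in 2 of 27 (10 and 2). Txnrd1 and Hmox1 were among those higher, while Nqo1, Gclc, Gclm, Srxn1 and Gsr were among the 14 not called. The glutathione peroxidase genes split, with Gpx1 up by 0.29 and Gpx4, which reduces lipid peroxides, at 259, 269 and 232 CPM in scramble and 196, 172, 182 and 179 CPM in Mettl3 KD (log2 fold change -0.48 ± 0.049, adjusted p = 2.2e-06). Iron and heme genes were higher in 12 and lower in 0 of 25 (9 and 0). They included Tfrc, the transferrin receptor that brings iron in, up by 0.29, and Slc40a1, the exporter ferroportin, up by 0.61. Lysosome genes were higher in 10 and lower in 4 of 33 (14 and 4), and translocon and signal peptidase genes in 11 and 2 of 31 (13 and 4).

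**Figure D3:**
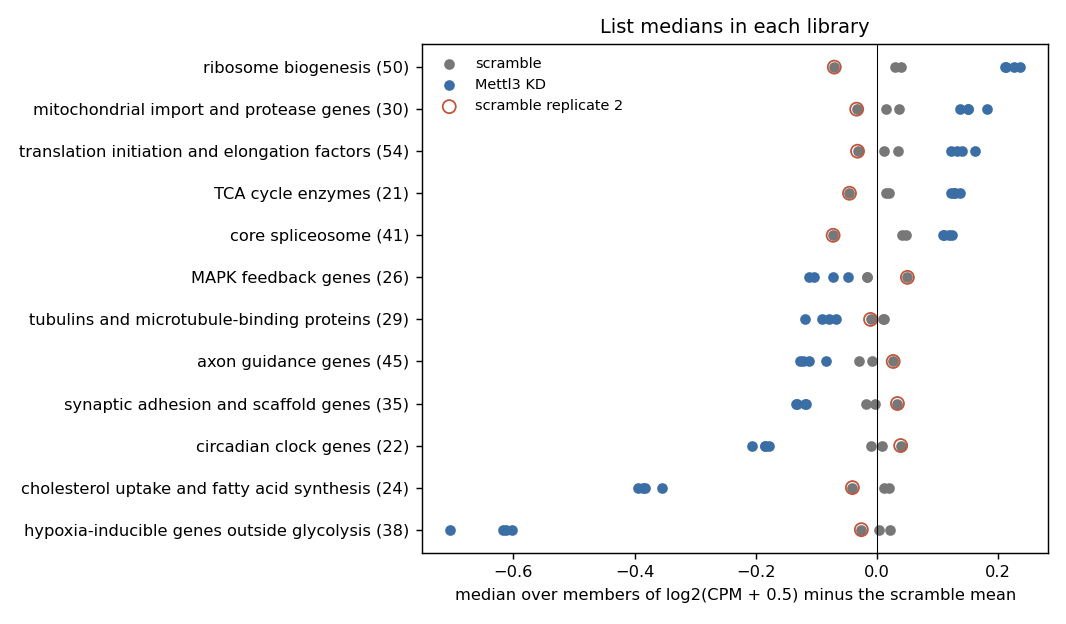
Each point is the median over a list's members of log2(CPM + 0.5) minus the scramble mean in a single library, for 12 lists, with the number of members in brackets and scramble replicate 2 circled. The 4 knockdown libraries lay outside the range of the 3 scramble libraries in each of the lists drawn.

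Genes of cell contact that are best known from neurons stood on the falling side. Synaptic adhesion and scaffold genes were called lower in 17 and higher in 2 of 35, with a median log2 fold change of -0.13 (16 and 2 without scramble replicate 2). Endocrine cells share much of their exocytosis and adhesion genes with neurons. Nrxn3, encoding a presynaptic adhesion receptor, stood at 13.4, 12.3 and 13.95 CPM in scramble and 9.27, 9.65, 8.57 and 9.40 CPM in Mettl3 KD (log2 fold change -0.52 ± 0.069, adjusted p = 8.95e-06). Nrxn2 fell by 0.45 with all libraries and by 0.35 without scramble replicate 2, its highest library at 73.5 CPM. The receptor phosphatase gene Ptprs stood at 9.79, 11.1 and 11.6 CPM and 6.13, 7.06, 7.05 and 6.06 CPM (log2 fold change -0.72 ± 0.093, adjusted p = 6.67e-06). The postsynaptic scaffold gene Dlg4 and the latrophilin gene Adgrl1 fell by 0.31 and 0.28. The exceptions were Lrrc4, up by 0.80, and Lrrtm2, which averaged only 20 counts per library and rose by 1.29 (adjusted p = 0.00182).

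Some cytoskeletal lists and the guidance genes leaned lower. Tubulins and microtubule-binding proteins were called lower in 14 and higher in 3 of 29, with the same counts without scramble replicate 2. Mapt, encoding tau, stood at 4.44, 5.10 and 4.76 CPM in scramble and 2.64, 1.79, 2.28 and 3.03 CPM in Mettl3 KD (log2 fold change -0.97 ± 0.14, adjusted p = 3.26e-05), whereas the tubulin gene Tubb2a rose by 0.34. Axon guidance genes were lower in 12 and higher in 3 of 45 (11 and 5), with the plexin gene Plxnb2 down by 0.31, the semaphorin gene Sema3e down by 0.43 and the netrin gene Ntn4 up by 0.34. Cadherins and protocadherins were lower in 10 and higher in 3 of 30 (8 and 4), N-cadherin (Cdh2) by 0.22. Intermediate filament genes were lower in 5 and higher in 0 of 13, with and without that library. Actin cytoskeleton genes divided at 9 higher and 8 lower of 38 (10 and 7), and kinesin and dynein genes at 7 higher and 4 lower of 33 (3 and 7). RNA-binding splicing regulators gave a mixed count. The 48 hnRNPs and other regulators were higher in 6 and lower in 9 (2 and 12 without scramble replicate 2), and the smallest adjusted p belonged to the neuronal-type genes Elavl3, Celf3 and Celf4, which fell by 0.37, 0.29 and 0.38.

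Clock genes leaned lower. Of 22 tested, 13 were called lower and 1 higher, with a median log2 fold change of -0.18, and the counts were the same without scramble replicate 2. Bhlhe40 and Bhlhe41 are in both this list and the hypoxia list. Rora, an activator of the core clock loop, stood at 21.4, 19.6 and 20.4 CPM in scramble and 12.5, 11.5, 11.8 and 13.6 CPM in Mettl3 KD (log2 fold change -0.73 ± 0.071, adjusted p = 1.8e-07). Nr1d1, the repressor that opposes it, stood at 88.02, 96.2 and 88.1 CPM and 68.7, 62.98, 70.6 and 69.1 CPM (log2 fold change -0.42 ± 0.043, adjusted p = 2.92e-07). Genes of the activating and repressing arms were thus both lower, with no overlap in either gene. Dbp and Ciart, outputs of the loop, fell by 0.43 and 0.48, and Arntl by 0.21. Clock itself stood at 122 ± 3.38 CPM (SD, n = 3) in scramble and 127 ± 4.30 CPM (SD, n = 4) in Mettl3 KD and was not called (adjusted p = 0.268). All libraries share the harvest time of 72 h, and the labels give no time of day.

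**Figure D4:**
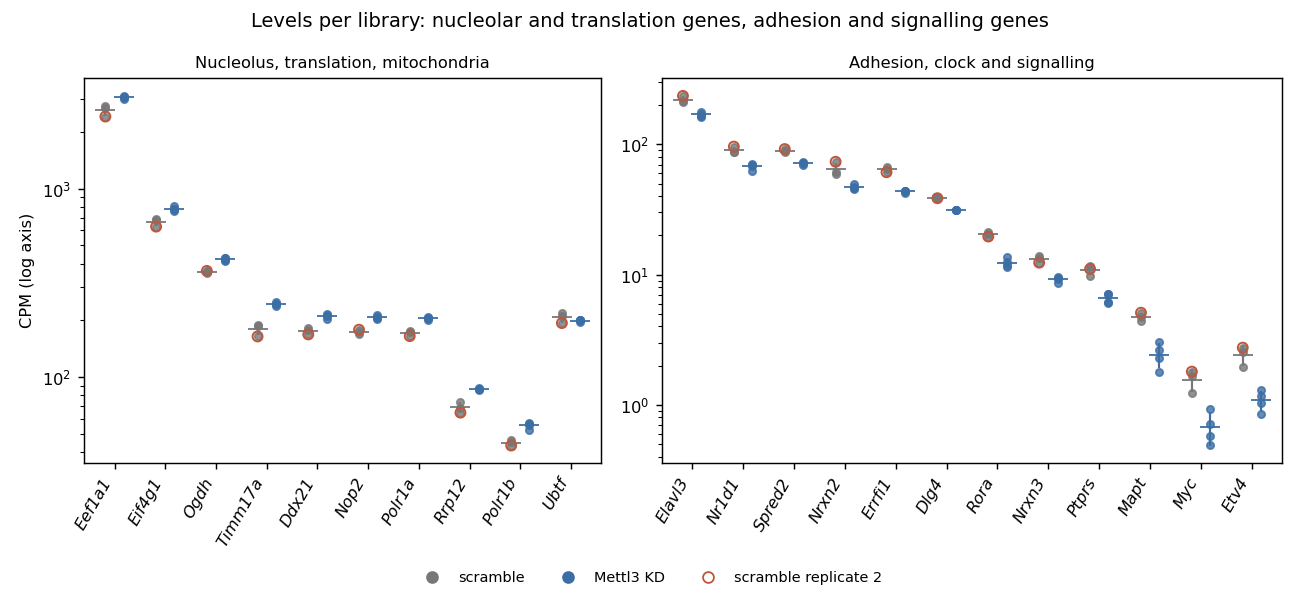
Points are single libraries (3 scramble, 4 Mettl3 KD) in CPM on a log axis, with group means, 1 SD and scramble replicate 2 drawn as open circles. Genes on the left stood higher in every Mettl3 KD library except Ubtf, whose groups overlapped, and all 12 genes on the right stood lower in every Mettl3 KD library.

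Growth factor signalling and G1 cell cycle genes gave smaller counts. Feedback genes of the MAPK cascade were called lower in 9 and higher in 1 of 26, also without scramble replicate 2. Errfi1, an inhibitor of EGF receptor family kinases, stood at 64.9, 61.1 and 67.4 CPM in scramble and 43.96, 42.2, 44.1 and 44.01 CPM in Mettl3 KD (log2 fold change -0.57 ± 0.043, adjusted p = 4.44e-09). Spred2 and Spred3, which restrain Ras signalling, fell by 0.31 and 0.58, and the ERK-responsive factor genes Etv4 and Etv5 fell by 1.15 and 0.30. Dusp1, a MAPK phosphatase, rose by 0.21. G1 cyclins, their kinases and inhibitors, with genes of the Myc network, were lower in 12 and higher in 3 of 32 (13 and 3). The list joins genes that drive the cycle and genes that restrain it, so its count gives no direction for cell cycle entry. Cyclin genes split, Ccnd3 falling by 0.45 and Ccnd2 rising by 1.01. Myc stood at 1.22, 1.80 and 1.66 CPM in scramble and 0.492, 0.715, 0.937 and 0.579 CPM in Mettl3 KD (log2 fold change -1.19 ± 0.24, adjusted p = 0.000863), a mean of only 23 counts per library.

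Among chromatin genes the lists differed. Polycomb and DNA methylation genes were lower in 13 and higher in 4 of 38 (12 and 4 without scramble replicate 2). Tet2 and Tet3, which oxidise methylated cytosine, stood lower by 0.30 and 0.36. Tet1 was called with all libraries (log2 fold change -0.29 ± 0.11, adjusted p = 0.0393) and not without scramble replicate 2 (adjusted p = 0.09). Pcgf5 and Rnf2, subunits of Polycomb repressive complex 1, fell by 0.39 and 0.32. Histone methyltransferases and demethylases divided at 8 higher and 11 lower of 42 (9 and 11), histone acetylation genes at 4 and 8 of 39 (3 and 9) and chromatin remodellers at 3 and 6 of 33 (5 and 9). Receptors for hormones and nutrients were lower in 6 and higher in 2 of 20 (7 and 2). Ffar4, a receptor for long-chain fatty acids, stood at 18.2, 20.2 and 18.1 CPM in scramble and 12, 10.1, 12.2 and 11.7 CPM in Mettl3 KD (log2 fold change -0.71 ± 0.069, adjusted p = 1.66e-07), and Avpr1b, a vasopressin receptor on alpha cells, at 90.4, 82.8 and 88.97 CPM and 63.9, 64.9, 66.4 and 64.9 CPM (log2 fold change -0.43 ± 0.036, adjusted p = 2.46e-08). cAMP signalling genes were lower in 9 and higher in 2 of 38 (7 and 2). In the TGF-beta and BMP pathway, 6 were higher and 9 lower of 36 (5 and 4). The median log2 fold change of this list was -0.052, with members between -1.05 and 0.50. The members named here are from the rising side only: the BMP-responsive genes Id1, Id3 and Smad7 were up by 0.29, 0.35 and 0.50.

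Several lists stayed near or under the background. DNA repair genes were higher in 6 and lower in 3 of 45, peroxisome genes in 1 and 2 of 26, NF-kB pathway genes in 0 and 3 of 21, and genes of the Wnt pathway in 3 and 4 of 27. Autophagy genes were higher in 4 and lower in 7 of 34, among which Ulk1, a kinase that starts autophagy, fell by 0.57 (adjusted p = 1.38e-05). Imprinted genes were higher in 3 and lower in 5 of 25. On leaving out scramble replicate 2, each of these counts changed by at most 1. The fibrillar and other collagen genes, 18 with names starting in Col, had no call with all libraries and 4 higher without scramble replicate 2. Col1a1 and Col3a1 stood at 3.73 and 7.92 CPM without TMM scaling in that library, and at most at 1.29 and 1.43 CPM in the others. Of 5 immune, endothelial and fibroblast markers tested, 2 were also called higher without it. The part of traces of other tissue in these calls was not tested.

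Genes were also sorted by the letters that start their names, which cuts across the pathway lists. Of all such families, this and the next paragraph name only those picked by their own counts. The share called in 1 direction had to be at least 1.5 times that of all genes, or few members had to be called. The counts are thus no support for the choice, and those of small families rest on a few calls. RNA helicase names stood out on the rising side: 19 of 33 Ddx genes were called higher and 2 lower (17 and 3 without scramble replicate 2), and 10 of 16 Dhx genes were higher and none lower (10 and 0). Mitochondrial ribosomal protein genes were higher in 30 of 50 (Mrpl) and 20 of 29 (Mrps), with none lower, and 28 and 20 were higher without scramble replicate 2. Cytosolic ribosomal protein names, which include pseudogenes, were higher in 30 and lower in 1 of 57 (Rpl) and higher in 21 and lower in 2 of 49 (Rps). RNA polymerase subunit genes (Polr) were higher in 12 of 28 and lower in none, and among general transcription names 10 were higher and 3 lower of 22 Gtf, 7 and 2 of 22 Taf and 10 and 4 of 30 Med genes. Eif names were higher in 24 and lower in 3 of 53, Nup in 8 and 0 of 20, Wdr in 21 and 3 of 57 and Atp in 22 and 5 of 63. Cox names were higher in 6 and lower in 1 of 21, Vps in 12 and 1 of 35 and Dnajc in 8 and 2 of 25, while Stk names divided at 4 and 3 of 17. With that library left out, Wdr came to 16, Gtf to 7, Med to 7, Rpl to 27 and Dnajc to 5, and the remaining counts of higher genes changed by at most 2.

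On the falling side, regulators of small GTPases were prominent. Of 27 Arhgap genes, which switch small GTPases off, 10 were called lower and 1 higher (8 and 3 without scramble replicate 2). Of 21 Arhgef genes, which switch them on, 8 were lower and 2 higher (6 and 1). Tbc genes, mostly Rab GTPase regulators, were lower in 9 of 29 and higher in 2, and Arl genes divided at 5 and 5 of 21 (7 lower and 1 higher without that library). Among names of histone readers and demethylases, Phf genes were lower in 6 of 19 and higher in 0, and Kdm genes lower in 6 of 17 and higher in 1. Trim ubiquitin ligase genes were lower in 10 of 33 and higher in 3. Orphan receptor names (Gpr) were lower in 8 and higher in 2 of 29, Map names in 13 and 3 of 43, Mapk in 5 and 0 of 16, Cdk in 7 and 3 of 26 and Pde in 5 and 1 of 18. Atg names were lower in 5 and higher in 2 of 18, Kctd in 5 and 3 of 18, Aldh in 5 and 2 of 15, Cyp in 5 and 3 of 15 and Fbxl in 4 and 1 of 15. With that library left out the last 3 names came to 3, 4 and 2, and Mapk and Pde to 3 each, while the other lower counts changed by at most 2. The Atg names had a median log2 fold change of -0.0056, against -0.0039 for all genes. Most of them are also in the autophagy list, counted above among those near the background. Few calls were made among Fbxo (4 of 29), Nudt (1 of 22), Olfr (1 of 22), Vmn (1 of 21), Rad (2 of 18) and Pex (1 of 17) genes. Without that library Fbxo came to 3 higher and 3 lower, Nudt to 3 and 2 and Pex to 2 and 0.

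Among the genes with the largest changes, a rule by size named 15 in each direction. Those lower had log2 fold changes between -1.17 and -2.41 and those higher between 0.62 and 1.01. Beside the hypoxia and desaturase genes above, the falling genes included Cd14, the lipopolysaccharide co-receptor, at 60.1, 55.7 and 57.7 CPM in scramble and 24.7, 26.4, 24.6 and 27.04 CPM in Mettl3 KD (log2 fold change -1.17 ± 0.046, adjusted p = 2.13e-13). They also included Colgalt2, a collagen galactosyltransferase, at 17.5, 18.2 and 16.3 CPM and 8.73, 5.81, 6.70 and 7.04 CPM (log2 fold change -1.29 ± 0.12, adjusted p = 1.5e-06). Among the rising genes, Fbp2, a fructose bisphosphatase of gluconeogenesis, stood at 4.99, 4.30 and 5.65 CPM and 9.22, 8.49, 7.50 and 8.51 CPM (log2 fold change 0.75 ± 0.11, adjusted p = 4.06e-05). The potassium channel genes Kcnh1 and Kcnj14 rose by 0.72 and 0.71, and the guanylate cyclase receptor gene Gucy2c by 0.70. None of these 6 genes overlapped between the groups, which the rule required, so this adds no support.

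The most abundant genes called included hormone-binding and granule genes. Ttr, which encodes transthyretin and marks alpha cells, stood at 1272, 1054 and 1182 CPM in scramble and 1449, 1475, 1469 and 1539 CPM in Mettl3 KD (log2 fold change 0.34 ± 0.050, adjusted p = 8.06e-05). The granule gene Chga rose by 0.18, whereas Ptprn, which encodes a granule membrane protein, fell by 0.23 (adjusted p = 5.67e-06). Also lower was Bsg, a chaperone for lactate transporters, at 1555, 1559 and 1692 CPM in scramble and 1276, 1161, 1260.2 and 1222 CPM in Mettl3 KD (log2 fold change -0.38 ± 0.046, adjusted p = 8.18e-06). In Ttr, Chga, Ptprn and Bsg the groups were apart, which was a condition for naming an abundant gene.

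The shares of genes called higher and lower differed by transcript length. Over 12215 coding genes placed in 5 equal bins (GENCODE vM21 transcripts), 24.6% of the genes with the shortest transcripts (median 1251 bases) were called higher and 10.1% lower. Among those with the longest (median 6612 bases), 12.7% were higher and 21.1% lower. The shares without scramble replicate 2 were 23.6% and 10.6% in the shortest bin and 13.6% and 20.1% in the longest. The 3' UTR length gave a like gradient, from 21.8% higher and 11.6% lower in the shortest bin to 14.8% and 20.8% in the longest. So did the longest internal exon, a feature added after the data were seen, from 21.1% and 13.3% to 13.7% and 19.4% with all libraries. Without scramble replicate 2, the bin with the longest such exons had 14.7% higher and 17.1% lower, a smaller gap. The number of exons gave little, with 16.1% higher and 16.8% lower in the lowest bin and 15.4% and 18.5% in the highest. GC-rich transcripts were lower more often than higher, at 25.1% against 11.9% in the top bin, and 21.7% against 14.2% without scramble replicate 2. The shares also differed by level: 3.1% of the least abundant genes were called higher and 13.3% lower, against 26.2% and 18.95% of the most abundant. Length, GC and level differ together between genes and their parts were not tested apart. The gene lists and name families above were not matched for these features, and the part of the features in their shares was not tested.

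**Figure D5:**
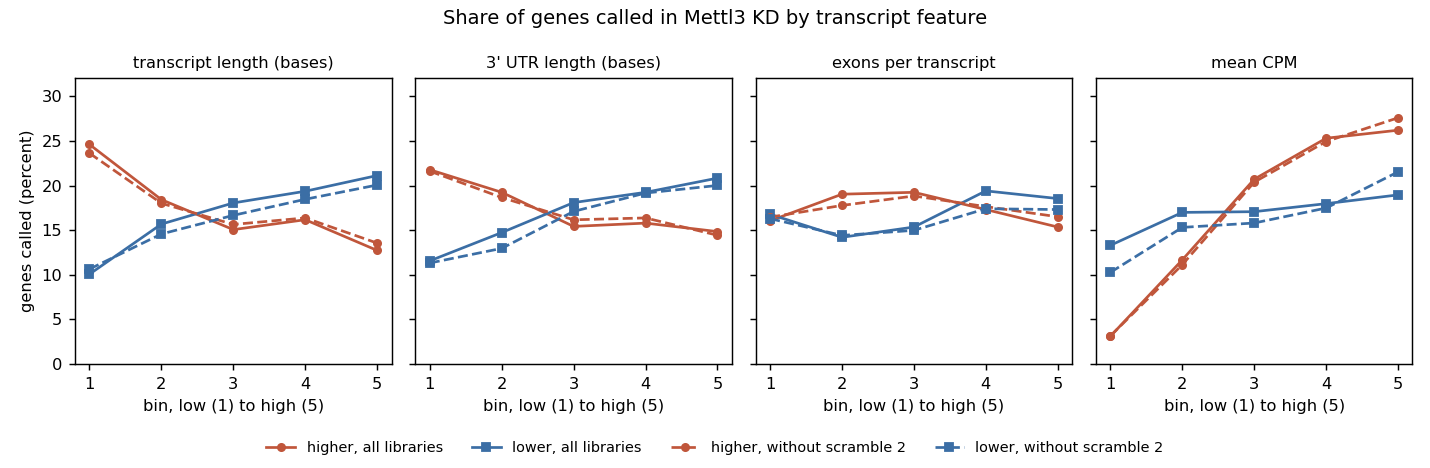
Lines show the percent of coding genes called higher or lower in Mettl3 KD in 5 equal bins of transcript length, 3' UTR length, exons per transcript and mean CPM, with all libraries (solid) and without scramble replicate 2 (dashed). The lines for higher and lower cross along both length axes, stay close along exon number, and calls become more frequent with mean CPM.

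The Mettl14 KD libraries share the scramble libraries with this comparison, so values are set side by side and the knockdowns are compared directly, without scramble. Of 14133 genes, 1145 (8.1%) were called between Mettl3 KD and Mettl14 KD. That count was 2125 without scramble replicate 2, and lay between 713 (without Mettl3 KD replicate 4) and 820 when any 1 knockdown library was left out. In the hypoxia list 2 of 38 genes were called (7 without scramble replicate 2), Vegfa with a direct difference of -0.10 (adjusted p = 0.0464) and Jmjd6 with a difference of 0.16 (adjusted p = 0.0068). Vegfa kept this call in 5 of 17 alternatives and lost it when any knockdown library was left out; its adjusted p lay between 0.00635 and 0.131. Vegfa averaged 165 CPM in Mettl14 KD and 154 CPM in Mettl3 KD, against 249 CPM in scramble. Bnip3 averaged 153 CPM in Mettl14 KD and 169.9 CPM in Mettl3 KD, a direct difference of 0.15 (adjusted p = 0.498). In the ribosome biogenesis list 5 of 50 genes differed (16 without scramble replicate 2 and 1 without Mettl3 KD replicate 4), in the lipid supply list 7 of 24 (10 and 4), in the clock list 6 of 22 (7 and 4) and among translation factors 9 of 54 (17 and 3). Eef1a1, the elongation factor that carries aminoacyl-tRNA, averaged 2504 CPM in Mettl14 KD, 3056 in Mettl3 KD and 2606 in scramble, a direct difference of 0.29 (adjusted p = 1.45e-05). Cd14 fell further in Mettl3 KD: it averaged 38.5 CPM in Mettl14 KD and 25.7 CPM in Mettl3 KD, a direct difference of -0.58 (adjusted p = 2.94e-08). Dnajb1 averaged 77.8 CPM in Mettl14 KD and 54.2 CPM in Mettl3 KD (adjusted p = 9.62e-09), and Fbp2 5.24 CPM and 8.43 CPM (adjusted p = 0.000227). Nrxn3 averaged 13.3 CPM in Mettl14 KD, against 9.22 CPM in Mettl3 KD (adjusted p = 2.05e-05), and Srebf2 416 CPM against 345 CPM (adjusted p = 7.91e-06). A gene that did not pass this direct test is not shown to respond alike in the 2 knockdowns.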

How the data were processed

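Messenger RNA was sequenced from 11 libraries, and the 3 scramble and 4 Mettl3 KD libraries are described here. The authors deposited estimated counts per gene, made with kallisto per the submitters' processing notes. The sources used here do not give its version, transcript annotation, genome build or strand setting. Of the values 11.5% were not whole, so all were rounded to whole numbers. kallisto divides reads among similar transcripts, so levels of ribosomal proteins, tubulins, Eef1a1 and other genes with close copies are uncertain. Rows without a gene symbol held 0.518% of the counts and entered the fit under their identifiers. The table has 0 columns of other samples.

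Counts were fitted in edgeR 4.0.16 (R 4.3.3) with TMM scaling, filterByExpr, group means and the robust quasi-likelihood test over all 11 libraries, with Benjamini-Hochberg adjustment at 0.05 over 14133 genes, 13731 of them with a symbol. The biological coefficient of variation was 4.38%. The fit was run on simulated counts with known changes, drawn with a single common spread for all genes and no library with foreign reads. That run checks the code and cannot show how the test performs with a library such as scramble replicate 2. Library totals were 19576632 to 22406527. Same-numbered scramble and Mettl3 KD libraries had correlations of deviations between -0.070 and 0.049, so the numbers were not taken as pairs. Symbols were matched by identifier in the reference tables for 48651 of 53947 rows; transcript features come from GENCODE vM21 and promoters from RefSeq (GRCm38.p6), and no coordinate was taken from the deposited table.

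The comparison and the gene lists were chosen with earlier results of these data known. Named were Mettl3, Mettl14 and Gcg, the 15 genes of largest change in each direction, the 10 most abundant genes called in each direction, and up to 3 members per list or name family by adjusted p, with a mean of at least 50 counts; the text uses part of these, some results are not reported here, and the other genes named were chosen after their values were seen. Name families share the letters before the first digit and hold at least 15 genes tested, and those described were picked by their share of calls. Alternatives were RLE scaling, DESeq2 1.42.0, limma-voom (limma 3.58.1) with quality weights, other filters, fewer libraries and a replicate block. No set test was run.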

Additional observations from a re-analysis of the deposited data

Results flagged for a closer look

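Among the 4 Mettl3 KD libraries, 239 sets of values (173 genes and 66 list medians) were searched for a library far from the other 3, with a gap above Dixon's 95% critical value for 4 samples; 11 were found, and chance flags about 1 in 20 groups. Of these, 7 were in replicate 2. H19, an imprinted noncoding RNA, stood at 22.3 CPM in replicate 2 and at 1.29 to 1.60 CPM in the other 3. The median of the hypoxia list was -0.704 in replicate 2, the lowest of the 4, and that of the cytosolic chaperones was 0.123, relative to the scramble mean. Replicate 2 was also the lowest for Bnip3l (49.9 CPM), Errfi1 (42.2 CPM), Eif4ebp1 (27.7 CPM) and Ubtf (195.8 CPM). Replicate 1 was the lowest for Clock (120.4 CPM) and Mlxipl (2.69 CPM). In replicate 3, Mgarp stood at 3.62 CPM and the median of 3 beta cell markers at -0.181. The part of these libraries in any result was not tested beyond leaving each out.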

How the results depend on the processing

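The alternatives covered scaling, test, filter, libraries and pairing. Counts of genes higher and genes lower in Mettl3 KD stayed within 1.5 times of 2184 and 2236 under all 18; leaving out each Mettl14 KD library was added after the data were seen. Leaving out each library in turn gave 1798 to 2198 genes higher and 1900 to 2190 lower, and DESeq2 gave 1883 and 1806. With the replicate block, which treats equal numbers as pairs, 1854 were higher and 1930 lower; the numbers share no stated origin. The count of genes called between Mettl3 KD and Mettl14 KD, 1145 in the fit as reported, moved to 2038 with limma-voom and sample quality weights, and lay between 713 and 2125 when libraries were left out in turn. The highest, 2125, was without scramble replicate 2, which is in neither arm of that contrast and enters it through the shared fit. It was 748 without Mettl3 KD replicate 1, 713 without Mettl3 KD replicate 4, and 736, 762 and 728 without Mettl14 KD replicates 1, 3 and 4. The cause was not tested for the other settings. Of 166 called genes examined by name, 158 kept their call and sign in all settings where they could be fitted and none reversed. The 8 that lost it in some setting were C3, Dnmt3b, Gipr, Maged1, Ncl, Slc38a5, Sstr2 and Tet1. Ncl lost it only with the replicate block. Many of the 166 were named for size, abundance or a small adjusted p. Those named by size or abundance had to pass without scramble replicate 2, which is among the 18 settings. The number kept was thus partly fixed by the choice and does not stand for all calls. Of all calls, 82.7% were kept without scramble replicate 2. Of 7 genes examined by name and not called, 4 gained a call in some setting (Epas1, Gcg, Npm1 and Ubtf). Some named genes, such as Myc, Etv4 and Lrrtm2, rest on fewer than 50 counts per library, where small changes were not detectable at this depth.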
